A study of Rattus norvegicus with 6 samples.

Results

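The small leucine-rich proteoglycans decorin (Dcn), biglycan (Bgn), asporin (Aspn), lumican (Lum), fibromodulin (Fmod), osteomodulin (Omd), prolargin (Prelp) and osteoglycin (Ogn) were compared between groups of transfected rat 3Y1 fibroblasts grown in culture or as tumors. They were found through a platform annotation as every probe set assigned to a single one of these symbols, which gave 12 probe sets for 8 genes, out of 31042 probe sets other than controls and 14217 named genes. Ogn had 4 probe sets, Aspn had 2 and the other genes had 1 each. Where a gene had several, the probe set with the highest mean signal represented it and the others are given beside it.

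RNA came from the embryonic fibroblast line 3Y1 of the rat, stably transfected with an empty vector (Vector) or with the cytoplasmic domain of mucin MUC1 (MUC1-CD). There were 3 groups of 2 biological replicates. Vector cells and MUC1-CD cells were each grown in culture, and MUC1-CD cells were also grown under the skin of the hindlimbs of female athymic mice as tumors. Athymic mice lack a normal thymus and most T cells but keep their other host cells, so a tumor holds rat tumor cells and mouse cells, and its RNA was read on a rat array. Whether the lines were clones or pools, whether a tumor array is a single animal, and the age of the mice are details the labels do not give, so p values measure only the spread between these samples.

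Small leucine-rich proteoglycans are secreted proteins whose curved core of leucine-rich repeats binds collagen. Most carry sulfated sugar chains, chondroitin or dermatan sulfate on decorin and biglycan and keratan sulfate on lumican and fibromodulin, and they set the width and spacing of collagen fibrils. Decorin and biglycan also bind growth factors such as TGF-beta, and the family is made mainly by fibroblasts and related cells of skin, tendon, cartilage and bone. By sequence, decorin, biglycan and asporin belong to class I, lumican, fibromodulin, osteomodulin and prolargin to class II, and osteoglycin to class III.

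The Vector arrays differed from the others in their controls. Gapdh signal at the 3' end over that at the 5' end, a sign of RNA length, was 11.5 and 17.8 on the Vector arrays and 1.11 to 1.18 on the other 4, so this RNA measure and Vector identity cannot be told apart, in any change against Vector given here. Replicates of the Vector group also differed more, with an SD of the replicate difference over all tested probe sets of 0.616 on the log2 scale, while MUC1-CD cultures had 0.257 and tumors 0.284. Tumor RNA was frozen and column-purified and culture RNA was not, per the labels, so preparation and growth as a tumor cannot be told apart. All 10 markers of fibroblasts and mesenchyme were measured, and their summed signal was 118502 to 127518 in Vector cells, 87397 to 88823 in MUC1-CD culture and 107805 to 111999 in tumors.

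The members fell into 3 patterns. Aspn, Ogn and Omd were highest in Vector cells, far lower in MUC1-CD cells in culture, and at an intermediate signal in tumors. The difference between tumors and MUC1-CD culture did not pass the test for Omd. Dcn, Lum and Fmod were highest in tumors. Dcn and Lum had signals of 40.5 or less on every culture array, while Fmod was lower in MUC1-CD culture (45.7 and 30.6) than in Vector cells (87.2 and 80.6). Bgn had a high signal on every array, and Prelp a signal below 24 on every array. In what follows signals are linear MAS5 values, a probe set's own brightness that cannot be ranked against another probe set's, and changes are differences of log2(signal + 16) with their standard error (SE) from limma, adjusted over 18625 probe sets. The added 16 makes changes of dim probe sets smaller than those of plain log2 signals would be.

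**Figure D1:**
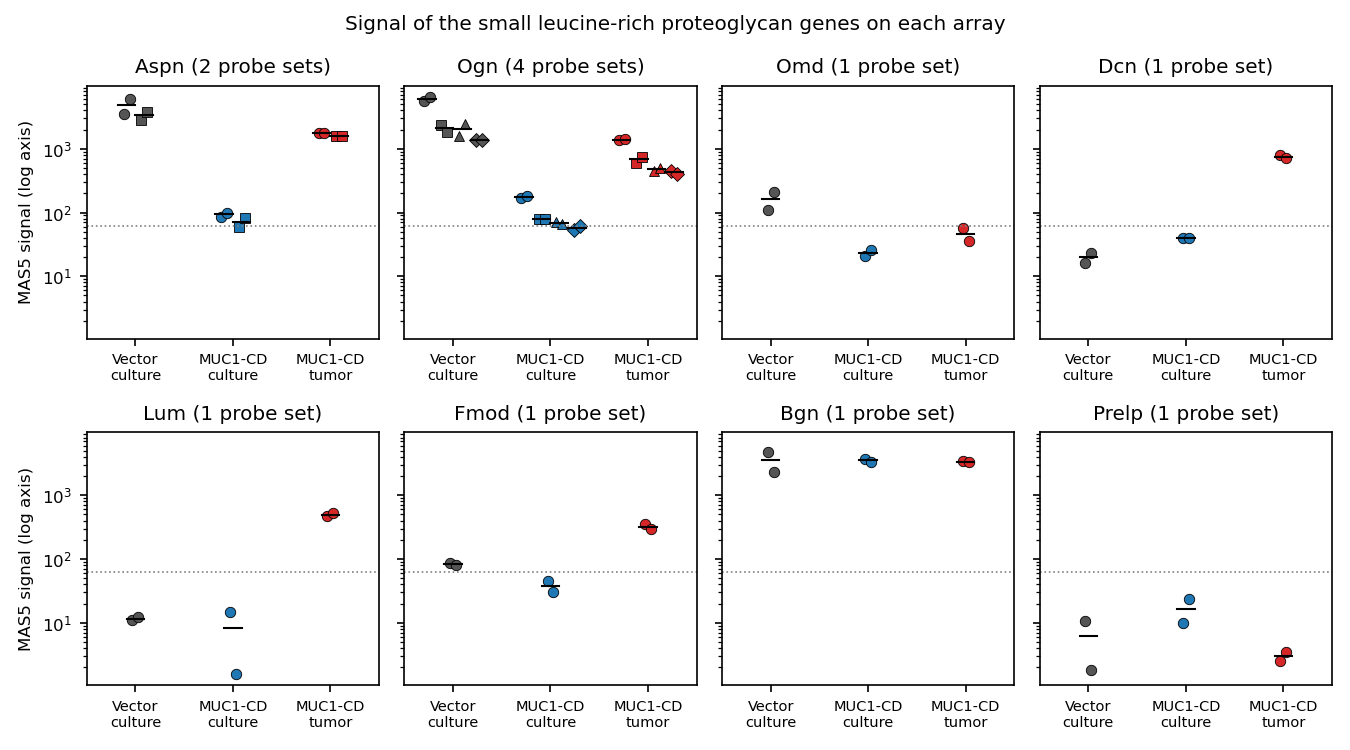
MAS5 signal (log axis) of each member on the 6 arrays, with a marker shape for each probe set, a horizontal bar at the mean of 2 arrays and a dotted line at 61.6, the signal filter applied to the mean over all arrays. Aspn, Ogn and Omd are highest in Vector culture, Dcn, Lum and Fmod are highest in tumors, Bgn is at 2299 to 4781 on every array, and Prelp lies under the line throughout.

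Asporin, an inhibitor of TGF-beta signalling in cartilage that competes with decorin for collagen, had signals of 3570.0 and 6069.0 in Vector cells. It had 86.5 and 99.9 in MUC1-CD culture, and 1739.6 and 1765.3 in tumors. The groups did not overlap, with the tumor arrays between the cultures. Aspn fell by 5.42 (SE 0.25) in MUC1-CD culture against Vector (limma adjusted p = 3.04e-05), to 1.93% of the mean Vector signal, and rose by 4.02 (SE 0.25) from culture to tumor (adjusted p = 0.00026). Tumors stayed below Vector cells at 36.4% of their mean, a fall of 1.40 (SE 0.25; adjusted p = 0.00353). The other Aspn probe set had 2867.1 and 3793.4, then 59.8 and 81.6, then 1558.4 and 1568.9, and the same order of groups. Its changes were -5.27, 4.20 and -1.07 in the same 3 comparisons, each past the test.

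Osteoglycin, a short class III member also called mimecan that takes part in collagen fibril formation, had signals of 5530.1 and 6376.9 in Vector cells. It had 169.2 and 181.3 in MUC1-CD culture, and 1370.5 and 1399.8 in tumors. Again no group overlapped another, and the tumors lay between the cultures. Ogn fell by 4.96 (SE 0.13) from Vector to MUC1-CD culture (adjusted p = 6.19e-06), rose by 2.87 (SE 0.13) from culture to tumor (adjusted p = 0.000125), and was lower in tumors than in Vector cells by a change of -2.09 (SE 0.13; adjusted p = 6.49e-05). The other 3 probe sets of Ogn had changes of -4.56 to -4.26 in the first comparison, 2.54 to 2.88 in the second and -2.02 to -1.60 in the third, all past the test. By signal, MUC1-CD culture stood at 2.94% to 4.14% of Vector and tumors at 23.3% to 32.4% over the 4 probe sets.

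Osteomodulin, an acidic keratan sulfate proteoglycan of mineralized tissue, was dimmer, with 109.6 and 211.3 in Vector cells, 21.1 and 26.1 in MUC1-CD culture, and 57.6 and 36.0 in tumors. The groups did not overlap, but the replicates in Vector cells and in tumors were far apart. Omd fell by 2.10 (SE 0.37) from Vector to MUC1-CD culture (adjusted p = 0.00431) and was lower in tumors than in Vector cells by a change of -1.45 (SE 0.37; adjusted p = 0.0165). The tumor change against MUC1-CD culture was 0.65 (95% interval -0.24 to 1.53; adjusted p = 0.285) and did not pass the test, so the order of those groups was not settled. Without Vector replicate 2 the change of tumors against Vector was -1.02 (adjusted p = 0.0528), and without tumor replicate 2 it was -1.20 (adjusted p = 0.0988).

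Ogn, Omd and Aspn are consecutive protein-coding genes on chromosome 17 of the GRCr8 rat assembly, in that order. Of the 10 other protein-coding genes within 5 places of any of them, 5 were tested. In MUC1-CD culture against Vector, Nol8 and Iars1 fell, by 0.86 and 0.51, and the range of the 5 was -0.86 to 0.29. From culture to tumor the range was -0.44 to 0.40, with 0 of 5 past the test. Cenpp, a centromere protein gene next to Ogn, changed by -0.40 and -0.12 in these comparisons, neither past the test. Ecm2, a leucine-rich repeat matrix gene beyond Aspn, was under the signal filter with 3.2 and 7.9 in Vector cells, 4.2 and 3.2 in MUC1-CD culture, and 30.8 and 63.8 in tumors. The changes of the 3 members were thus 2 or more on the log2 scale in the first comparison, and those of the 5 tested neighbours under 1.

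The sequence before the start of each of these neighbouring members is shown because they lie side by side and all fell from Vector to MUC1-CD culture, with that of Fmod, whose change there was -0.90 and which was highest in tumors, beside them. The sequences are RefSeq's, from GRCr8, 5' to 3' on the gene's strand, limited to bases outside the gene's annotated span. Capitals mark matches to the motifs searched.
Aspn, chr17:15310568-15310719, minus strand: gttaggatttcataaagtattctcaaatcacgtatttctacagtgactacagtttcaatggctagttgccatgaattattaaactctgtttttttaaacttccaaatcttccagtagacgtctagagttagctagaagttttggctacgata
Omd, chr17:15274871-15275120, minus strand: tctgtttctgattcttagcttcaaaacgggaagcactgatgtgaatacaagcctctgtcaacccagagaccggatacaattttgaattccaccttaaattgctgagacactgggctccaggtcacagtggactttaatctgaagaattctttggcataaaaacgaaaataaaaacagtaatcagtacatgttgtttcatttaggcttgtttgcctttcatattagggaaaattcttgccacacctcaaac
Ogn, chr17:15259168-15259245, minus strand: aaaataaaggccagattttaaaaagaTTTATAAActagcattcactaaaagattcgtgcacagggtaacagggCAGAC
Fmod, chr13:48045317-48045566, plus strand: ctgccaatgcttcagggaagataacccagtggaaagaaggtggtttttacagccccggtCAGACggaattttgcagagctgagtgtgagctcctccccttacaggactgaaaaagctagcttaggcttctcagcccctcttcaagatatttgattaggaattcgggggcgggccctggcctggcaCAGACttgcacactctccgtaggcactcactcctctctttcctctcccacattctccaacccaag
On both strands, 5 motifs were searched in the 250 bases before each start: TATAAA of the TATA box, TGANTCA of AP-1, CAGAC of SMAD, GGAATG of TEAD and CTTTGAT of TCF/LEF. They were chosen with the results known. The promoters of 5 members were in the RefSeq table. CAGAC was in those of Lum, Fmod and Ogn, against 42.9% of 33469 rat promoters. TATAAA and GGAATG were found in that of Ogn, where TATAAA matched on both strands with overlapping letters, against 12.9% and 12.1% of all promoters. All 250 bases of the Lum window, 172 of the Ogn window and 98 of the Aspn window lay inside the gene's own annotated span and are not printed. The Lum matches and the GGAATG of Ogn, 84 to 79 bases before the start, were therefore not upstream of the annotated gene. TGANTCA (6.34% of all) and CTTTGAT (3.15%) were in none of the 5, and the Aspn and Omd windows held no match to any motif. A match or its absence describes these letters only.

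Decorin, the best known collagen- and TGF-beta-binding member, had signals of 16.1 and 23.6 in Vector cells, 39.2 and 40.5 in MUC1-CD culture, and 799.7 and 709.1 in tumors. Both tumor arrays were far above all 4 culture arrays. Dcn rose by 3.78 (SE 0.23) from MUC1-CD culture to tumor (adjusted p = 0.000252) and was higher in tumors than in Vector cells by 4.43 (SE 0.23; adjusted p = 3.46e-05). Between the cultures the change was 0.65 (95% interval 0.10 to 1.19), with an adjusted p of 0.0553 that missed the threshold. The arrays of the cultures did not overlap, as for 73.1% of all tested probe sets. A call came with 3 of 14 alternatives. The limma adjusted p was 0.179 with array weights and 0.165 with only the arrays compared. The change was 0.50 without Vector replicate 1 and 0.80 without Vector replicate 2.

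Lumican, a keratan sulfate proteoglycan of cornea and skin that limits fibril width, had 10.9 and 12.2 in Vector cells, 14.7 and 1.6 in MUC1-CD culture, and 466.6 and 519.6 in tumors. The cultures overlapped and the tumors lay above them. Lum rose by 4.45 (SE 0.34) from culture to tumor (adjusted p = 0.000534) and by 4.21 (SE 0.34) against Vector (adjusted p = 0.000156). The change between cultures was -0.24 (95% interval -1.06 to 0.57; adjusted p = 0.589). No present or absent calls were used here, so whether signals as low as those of Lum and Dcn in culture are above background is not known, and no linear fold is given for them.

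Fibromodulin, which binds collagen beside lumican and acts on its crosslinking, had 87.2 and 80.6 in Vector cells, 45.7 and 30.6 in MUC1-CD culture, and 348.9 and 294.6 in tumors. The groups did not overlap, and tumors were highest. Fmod rose by 2.65 (SE 0.24) from culture to tumor (adjusted p = 0.000999) and by 1.75 (SE 0.24) against Vector (adjusted p = 0.00127). It fell by 0.90 (SE 0.24) from Vector to MUC1-CD culture (adjusted p = 0.022), a call lost without MUC1-CD culture replicate 2, where the change was -0.69 (adjusted p = 0.143), and with no signal filter (adjusted p = 0.0524).

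Dcn and Lum are also neighbours, on chromosome 7, where Kera and Epyc, further members of the wider family, follow them and had no probe set assigned to them alone. Of the 10 other genes within 5 places, 6 were tested. From culture to tumor their changes ran from -1.05 to 0.60, with 0 past the test upward and Ube2n, a ubiquitin-conjugating enzyme gene, past it downward. Fmod lies on chromosome 13 next to Prelp, and Chi3l1, a chitinase-like protein gene 3 places from Fmod, rose by 2.61 (SE 0.51) from culture to tumor (adjusted p = 0.0188). The other tested neighbours there, Adora1 and Zc3h11a, changed by -0.05 and -0.28.

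**Figure D2:**
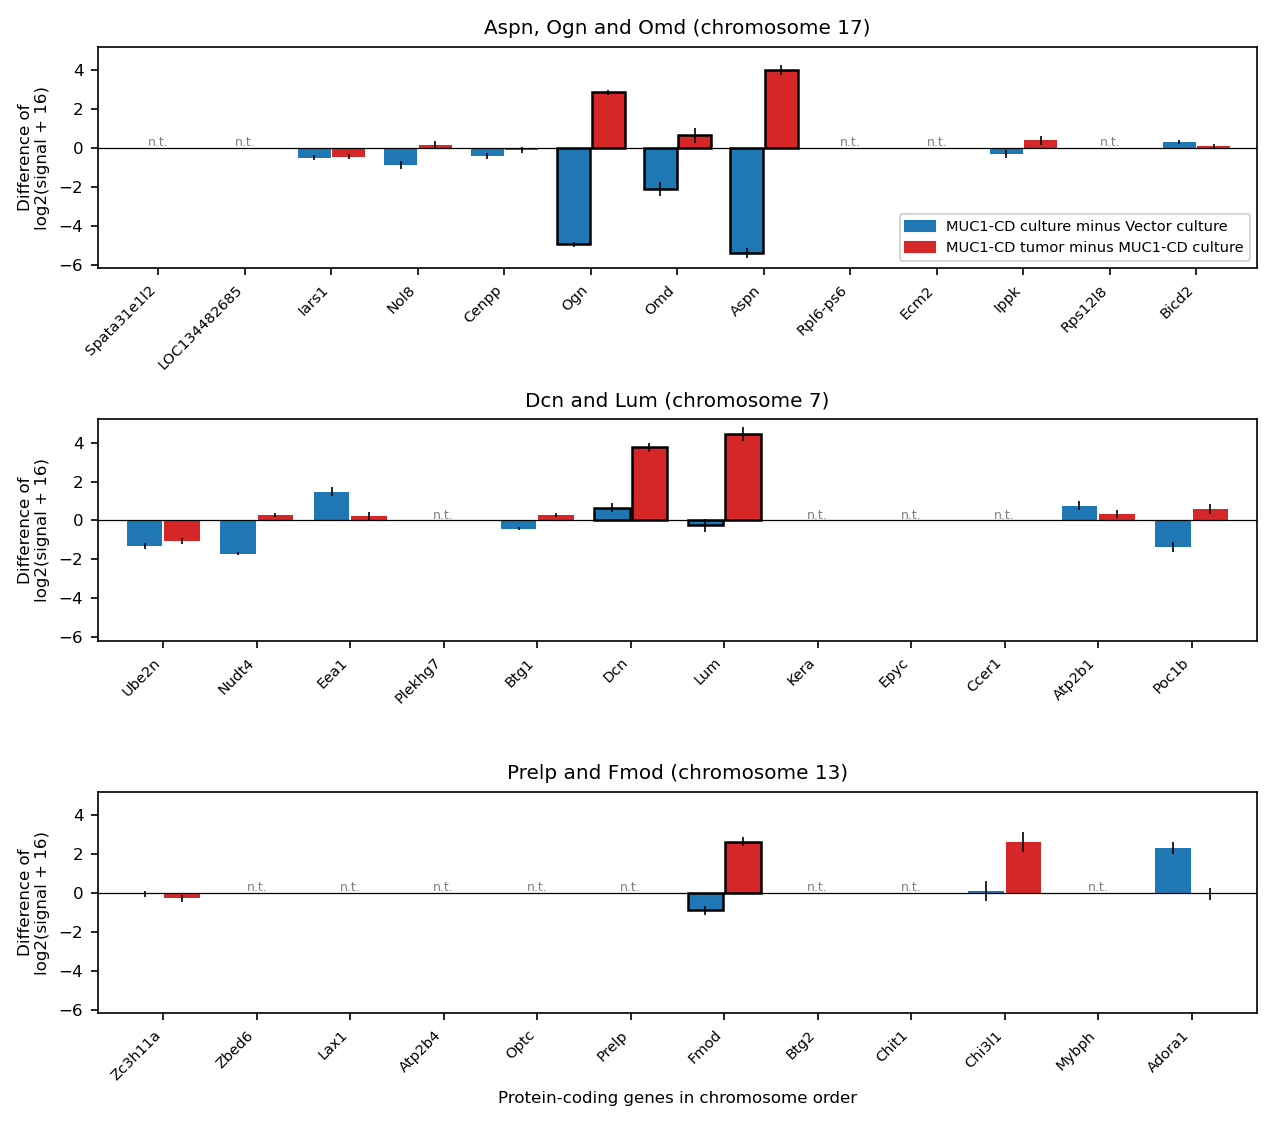
Difference of log2(signal + 16) for protein-coding genes in chromosome order around 3 groups of members, with blue bars for MUC1-CD culture minus Vector culture, red bars for tumor minus MUC1-CD culture, error bars of 1 SE, black outlines for members and n.t. for genes under the filter or without a probe set of their own. Ogn, Omd and Aspn have blue bars of -4.96, -2.10 and -5.42, while tested genes around them stay between -0.86 and 0.29.

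Biglycan, the closest relative of decorin, had 4780.5 and 2298.9 in Vector cells, 3647.9 and 3382.1 in MUC1-CD culture, and 3402.8 and 3285.5 in tumors. The Vector arrays lay on either side of all others. The change was 0.08 (95% interval -0.64 to 0.81) between cultures, -0.07 (-0.79 to 0.65) from culture to tumor and 0.01 (-0.71 to 0.73) from Vector to tumor, with adjusted p values of 0.844, 0.906 and 0.977. The intervals leave room for changes of over 1.5-fold either way, but they pool the spread of all 3 groups. The interval from culture to tumor thus takes in the wide Vector replicates, which that comparison does not use. Between cultures the value rested on which Vector array was used: it was 0.61 without replicate 1 and -0.44 without replicate 2. A lone Vector array has no spread of its own, so only the sizes are given. Against tumors it was 0.54 and -0.51 in the same order. With signals divided by the array median, the 3 changes were -0.24, -0.34 and -0.58, none past the test.

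Prolargin, a class II member with a basic, heparin-binding end, had signals of 10.7 and 1.8 in Vector cells, 9.8 and 23.4 in MUC1-CD culture, and 2.5 and 3.5 in tumors. With a mean of 8.62 over the arrays it was the only member under the filter of 61.6 and was not tested. With no filter its changes were 0.55, -0.75 and -0.20, none past the test (adjusted p = 0.209 to 0.679).

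Over the 7 genes that passed the filter, 4 fell and 0 rose in MUC1-CD culture against Vector, where 45.8% of all tested probe sets were called, 25.0% higher and 20.7% lower. From culture to tumor 5 rose and 0 fell, where 15.8% of all were called, 8.54% higher and 7.31% lower. From Vector to tumor 3 rose and 3 fell, where 51.5% were called, 29.1% higher and 22.4% lower. The groups did not overlap for 5, 6 and 6 of the 7 genes in these comparisons, and for 73.1%, 72.5% and 75.4% of all tested probe sets. Dcn, Lum and Fmod passed the filter only through the tumors, with means over the 4 culture arrays of 29.9, 9.85 and 61.0, and Omd only through Vector cells, with a mean of 35.2 over the other 4 arrays. A difference was therefore built into their selection, and the counts are an account of the members and not support for a shift of the family. The median change was -0.90, 2.87 and 0.01 over the 7 genes and 0.07, 0.05 and 0.12 over all tested probe sets.

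**Figure D3:**
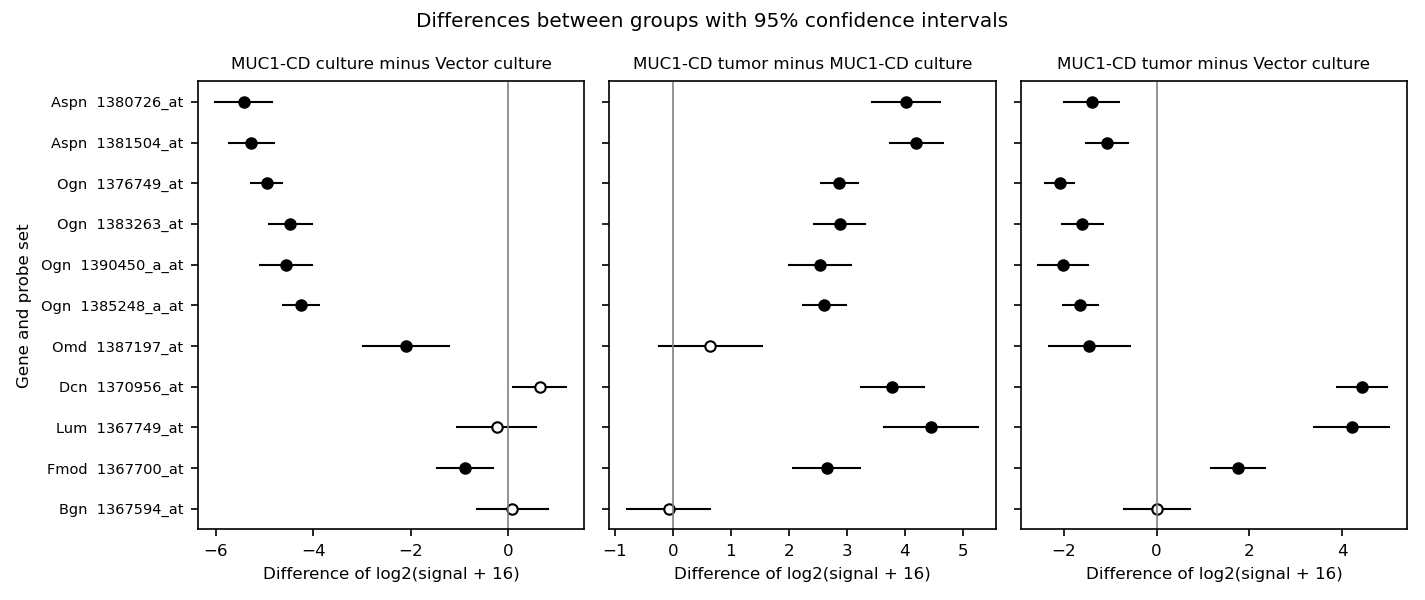
Difference of log2(signal + 16) for the 11 tested probe sets in 3 comparisons, with 95% intervals from limma. Filled points passed an adjusted p of 0.05. Both Aspn and all 4 Ogn probe sets lie below 0 in the first panel, above it in the second and below it again in the third, where Dcn, Lum and Fmod lie above 0.

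The comparisons share arrays: MUC1-CD culture enters the first and second with opposite sign, so a low value there lowers the first change and raises the second. Set side by side, the first and second changes were -5.42 and 4.02 for Aspn, -4.96 and 2.87 for Ogn, and -0.90 and 2.65 for Fmod. For Dcn they were 0.65 and 3.78, and for Lum -0.24 and 4.45. The third comparison leaves that group out, and there Aspn, Ogn and Omd fell while Dcn, Lum and Fmod rose. Class and pattern did not coincide: class I held Aspn, Dcn and Bgn, and class II held Omd, Lum, Fmod and Prelp. Aspn, Ogn and Omd on chromosome 17 all fell in both comparisons with Vector, but Omd did not pass from culture to tumor. Dcn and Lum on chromosome 7 rose in both comparisons of tumors. Prelp, next to Fmod on chromosome 13, was not tested.

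Members were next set beside genes of the collagen fibrils that they coat. With signals divided by the array median, the median of all probe sets became -0.24 and -0.21 in the steps from Vector to MUC1-CD culture and on to tumor, so list medians near 0 take their sign from the scaling. Beside the list counts below, 45.8% of all tested probe sets were called in the first step (25.0% higher, 20.7% lower). In the second step 15.8% were called (8.54% higher, 7.31% lower), and from Vector to tumor 51.5%. Of 16 tested fibrillar collagens and fibril-associated partners, 10 fell and 3 rose in MUC1-CD culture against Vector (median -0.61), and 8 rose and 1 fell from culture to tumor (median 0.60). From Vector to tumor 5 rose and 6 fell (median -0.13). Col3a1, the type III collagen chain found in skin and vessels, fell by 1.48 and then rose by 1.51 (adjusted p = 5.83e-05 and 0.000179). Its signals were 14572.7 and 15624.4, then 5549.3 and 5286.6, then 14933.0 and 16017.6, so tumors overlapped Vector cells. Col11a1, a fibril-nucleating chain, fell by 5.40 (SE 0.23) to 13.6 and 23.7 from 1413.0 and 1453.9, and was at 48.1 and 39.9 in tumors, a change of 0.80 that did not pass the test (adjusted p = 0.0598). Fbn1, fibrillin of microfibrils, rose in both steps by 2.75 and 2.58, and Loxl2, a crosslinking oxidase, rose by 2.67 in the first.

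Enzymes that build the sugar chains were called in the first step at a share near that of all tested probe sets. Of 15 tested genes of chondroitin and dermatan sulfate synthesis, 4 rose and 3 fell in the first step (median 0.34), and 1 rose and 2 fell in the second (median -0.02). Csgalnact1, which starts chondroitin chains, rose by 4.11 from 12.6 and 26.7 in Vector cells to 573.9 and 601.9 in MUC1-CD culture (adjusted p = 6.24e-05), and was at 1092.7 and 934.0 in tumors. Fam20b, a kinase of the linkage sugar, rose by 1.85 and the sulfotransferase gene Chst12 by 1.24 in the first step. Ugdh, which makes the glucuronic acid donor, rose by 0.69 and then fell by 0.68. Of 5 tested genes of keratan sulfate synthesis, 1 rose and 1 fell in the first step (median 0.15), and 0 passed in the second (median 0.49). Chst2, a sulfotransferase gene, rose by 1.53 and Fut8, a fucosyltransferase gene, fell by 0.53 in the first. The other 2 named by the rule, B3gnt2 and B4galt4, changed by 0.33 and -0.36 without passing.

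Of 16 tested genes for ligands and receptors that bind decorin or biglycan, 6 rose and 4 fell in the first step (median 0.22), and 4 rose and 1 fell in the second (median 0.23). Cd14, a co-receptor for biglycan signalling through Toll-like receptors, rose by 2.45 in the first step, and Tgfbr1, a TGF-beta receptor gene, by 1.11. Tgfb2 fell by 1.18 and then rose by 1.09. Bmp4 fell by 2.51 and was at 58.2 and 31.0 in tumors against 324.9 and 249.6 in Vector cells.

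Of 8 tested proteases that cleave members of the family, 2 rose and 3 fell in the first step (median 0.13), and 4 rose and 1 fell in the second (median 0.81). The stromelysin gene Mmp3, whose product can cleave decorin, rose by 6.48 and the collagenase gene Mmp13 by 1.73 in the first step. Mmp13 fell by 0.48 in the second. The gelatinase gene Mmp2 fell by 1.32 and then rose by 5.76, from 30.6 and 20.4 in culture to 2138.8 and 2294.1 in tumors (adjusted p = 6.41e-05). Adamts4, an aggrecanase gene, fell by 1.85 and rose by 1.75. Of 7 further relatives of the family with a probe set of their own, 2 were tested. Podnl1, a podocan-like gene, had changes of 0.78 and 0.79 in these steps that did not pass, and rose by 1.57 from Vector to tumor (adjusted p = 0.00334). Tsku, tsukushi, had 0.08 and 0.46, neither past the test.

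**Figure D4:**
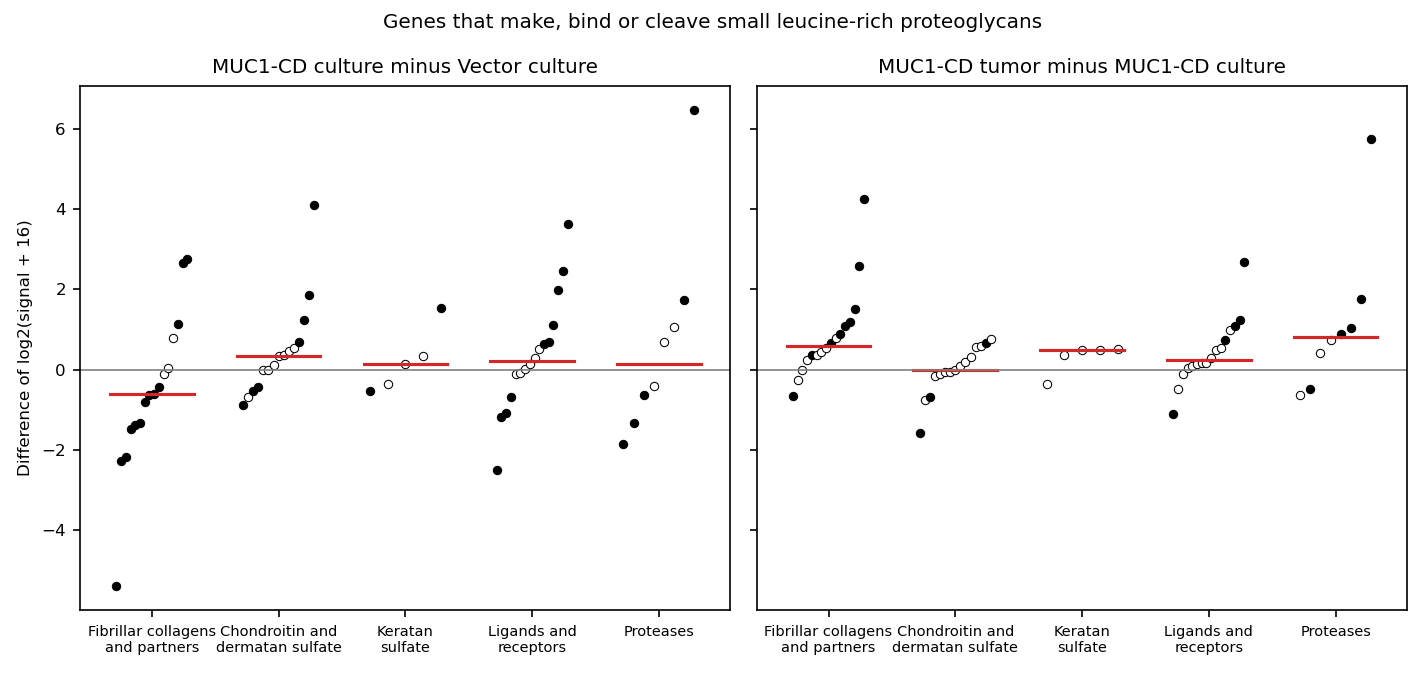
Difference of log2(signal + 16) for tested genes of 5 lists in MUC1-CD culture minus Vector culture (left) and tumor minus MUC1-CD culture (right), with filled points for genes past an adjusted p of 0.05 and a red line at each list's median. The median of fibrillar collagens and partners is -0.61 on the left and 0.60 on the right.

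Markers of host cell types were read on the same arrays, and the part of host cells in the Dcn and Lum signals of tumors was not tested. Of 10 markers of resident dermal or fascial fibroblasts with a probe set, 5 were tested: Dpt, C3 and Col15a1 rose from culture to tumor by 2.86, 2.61 and 2.65, Pdgfra fell by 0.59, and Pi16 did not pass. Col15a1, a basement membrane collagen, was not limited to tumors: it had 16.6 and 58.3 in Vector cells and 740.2 and 756.8 in MUC1-CD culture, where no host cells were present, a rise of 3.96 (adjusted p = 0.000299), and 4598.5 and 4995.9 in tumors. Dpt and C3 were at 32.6 or less on every culture array. The summed signal of the 10 resident fibroblast markers was 7974 to 8053 in MUC1-CD culture, 9991 to 10409 in tumors and 10312 to 11101 in Vector cells. In Vector cells Pdgfra made up most of it. Fap, a marker of activated fibroblasts, rose by 3.23. Macrophage markers rose for 8 of 10 tested, with a summed signal of 463 to 492 in MUC1-CD culture, 512 to 770 in Vector cells and 4526 to 4635 in tumors. Cd163 and Fcer1g changed by -0.19 and 0.47 without passing. Cd163 was at 115.1 and 144.7 in MUC1-CD culture, where no host cells were present, and at 102.0 and 121.8 in tumors. Lyz2, among those that rose, was lower in tumors (172.5 and 136.9) than in Vector cells (267.6 and 376.7). Endothelial markers rose for 4 of 5 tested. Their sums were 577 to 582 in MUC1-CD culture, 503 to 532 in Vector cells and 2883 to 2898 in tumors. Aqp1, at 1763.4 and 1550.4, made up most of the tumor sum, and Egfl7 changed by -0.59 without passing. Among those under the filter, Pecam1, Kdr and Vwf were at 27.5 or less in tumors and not above all culture arrays. Tie1 and Emcn, also under it, were higher in tumors. Skeletal muscle markers rose for 9 of 9, with sums of 3027 to 3089 in MUC1-CD culture, 10202 to 10754 in Vector cells and 13436 to 14465 in tumors. Myh1 held most of the Vector signal. Of all tested probe sets, 8.54% were called higher from culture to tumor. Markers such as Dpt, C3, Fap, Aif1, C1qa, Coro1a, Flt1, Aqp1 and Acta1 were under 61.6 on every culture array. They passed the signal filter only through the tumors, so a rise was built into their selection and the counts only describe them.

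Pericyte and smooth muscle markers were called for 0 of 4 tested from culture to tumor, with a median of -0.07. Their changes ran from -1.44 for Myh11 to 1.34 for Acta2. Their sums were 694 to 804 in Vector cells, 1858 to 1999 in MUC1-CD culture and 2303 to 2545 in tumors. Cspg4 was at 930.8 and 855.3 in MUC1-CD culture and at 3.9 and 3.3 in Vector cells. From culture to tumor, adipocyte markers had 1 rise and 1 fall of 2 tested, and keratinocyte markers 0 calls of 2. Of 7 chondrocyte, osteoblast or tendon markers with a probe set, cell types that make much asporin, osteoglycin and osteomodulin, only the tendon transcription factor gene Scx was tested. It fell by 3.28 from 7037.8 and 6085.7 in Vector cells to 679.1 and 642.2 in MUC1-CD culture (adjusted p = 2.56e-05) and was at 525.7 and 585.3 in tumors. Acan, Col2a1, Comp, Bglap and Ibsp stayed under 64 on every array, and Tnmd, tenomodulin of tendon, at 94.1 or less. No marker on these lists was at 0 on every array. The part of host cells in the tumor values was not tested, nor was how far mouse transcripts bind these rat probes, and in such bulk samples fewer cells of a type and less RNA per cell cannot be told apart.

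Genes with the most similar profile were taken as the 2 with the highest Pearson correlation of log2(signal + 16) over the 6 arrays, among 3445 genes whose group means spanned at least 1 log2. The values describe 3 groups of 2 arrays that share depth and scaling. For Ogn they were Ptpn22, a phosphatase gene, and Col8a2, a short-chain collagen (r = 0.9989 and 0.9988), and for Aspn Icos, a T cell costimulator gene, and Smpdl3b (0.9991 and 0.9960). Col8a2 had 3815.5 and 3855.9 in Vector cells, 59.0 and 70.6 in MUC1-CD culture, and 622.1 and 693.5 in tumors. For Dcn they were Gbp2, an interferon-induced GTPase gene, and Cyssl2 (0.9998 and 0.9993), and for Lum Ifi44l, also induced by interferon, and Ch25h, cholesterol hydroxylase (0.9982 and 0.9965). Gbp2 had 580.2 and 691.0, then 829.0 and 868.3, then 4938.9 and 4750.2. For Fmod they were C3h11orf96 and Ggt5, a leukotriene-processing enzyme gene (0.9965 and 0.9957), and for Omd Apba1 and Vcf1 (0.9962 and 0.9935). Bgn, whose group means spanned 0.08, had lower values with Mapk7 and Cd99 (0.8662 and 0.8339), which were also lowest on Vector replicate 2.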

How the data were processed

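The deposited intensity values are linear MAS5 signals, 1 per probe set, per the submitters' processing notes. The median signal of an array ran from 84.0 to 130.4. The MAS5 version and any filter are not given here. Of 31099 probe sets, 57 were controls. Of the rest, 20826 named a single gene in a platform annotation, and symbols were updated by Entrez identifier to GRCr8 (20758 matched).

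Signals were kept as deposited and converted to log2(signal + 16). A filter on the mean of the 6 arrays (at least 61.6, the 40th percentile) left 18625 probe sets. A single model held all arrays in limma 3.58.1 (R 4.3.3), with group as the only term and eBayes with a trend (residual degrees of freedom 3, prior 3.70 by median). Tests are 2-sided, adjusted by Benjamini-Hochberg over all kept probe sets, with a threshold of 0.05. The code was tested on simulated data. The number of arrays limits the precision.

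Named genes are the members, up to 4 genes of each list with the smallest adjusted p in either step, genome neighbours within 5 places and the 2 genes of most similar pattern. Where a count or group called for it, further genes of the lists were named after their values were seen. The members and lists were chosen with earlier results of these data known. Alternatives were pseudocounts of 1 and 64, no filter or the 60th percentile, division by the array median, quantile normalization, no trend, array weights, only the groups compared, a replicate block, each array left out, and the other probe sets.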

Additional observations from a re-analysis of the deposited data

How the results depend on the processing

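Over 21 tested pairs of member and comparison, 284 of 297 alternative values kept their side of the threshold. Of these, 4 changed sign without a call on either side: Bgn with signals divided by the array median (-0.24 between cultures and -0.58 in tumors against Vector) and without tumor replicate 1 (-0.01 in tumors against Vector), and Lum between cultures without MUC1-CD culture replicate 2 (0.16). Of the rest, Fmod in MUC1-CD culture against Vector lost its call at the same change of -0.90 with no filter (adjusted p = 0.0524), with array weights (0.0991) and with only the arrays compared (0.0592), and ranged from -1.10 to -0.69 with an array left out. Dcn in that comparison gained a call with a pseudocount of 1 (0.99) and without a trend (0.65). It gained none with a pseudocount of 64 (0.31) or no filter (0.65), and ranged from 0.50 to 0.80 with an array left out. With an array left out, Omd in tumors against Vector ranged from -1.88 to -1.02, and Bgn from -0.44 to 0.61 between cultures and from -0.51 to 0.54 in tumors against Vector, reversed without Vector replicate 2. The causes were not tested.

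Counts of called probe sets were 8522, 2952 and 9589 in the 3 comparisons. With an array left out they ranged from 4413 to 11519, from 607 to 670 and from 5958 to 12401, taking a lone array to vary as the other groups do. From culture to tumor the count was 7798 with array weights and 8049 with only the arrays compared. With signals divided by the array median, the median over all probe sets went to -0.24, -0.21 and -0.45, and higher calls went from 54.7% to 33.7%, from 53.9% to 22.9% and from 56.5% to 25.7% of the calls. No called change of a member turned direction with it. The 60th percentile filter left Fmod, Lum and Omd without a value.

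Replicate numbers did not pair the arrays (correlations of replicate differences between groups of -0.045 to -0.018). The replicate block gave counts of 8130, 2390 and 9208 and changed no call of a member.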
